A study of Mus musculus with 8 samples.

Results

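The 10 enzymes described here carry folate-bound one-carbon units in the cytosol or in mitochondria: Aldh1l1, Mthfd1 and Shmt1 are cytosolic, and Aldh1l2, Mthfd1l, Mthfd2, Mthfd2l, Shmt2, Gldc and Amt are mitochondrial. They were chosen by name, all 10 were found among the 32285 genes of the expression matrices, and none was used to define a cell type. RNA and accessible chromatin were measured in the same nuclei of the hippocampus of wild-type C57BL/6J pups at postnatal day 21, males by the study's methods. The dams, 8 weeks old, ate 2 mg/kg folic acid (MF, the control diet) or 20 mg/kg folic acid (HF) from before mating until the end of lactation, so the pups were exposed through their mothers. Each diet had 2 libraries, named MF1, MF2, HF1 and HF2. How many pups or litters each library came from is not given in the sources used here. The p-values therefore rest on the spread between these libraries and not on a known number of animals. The fits estimate that spread partly from other genes or regions.

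Tetrahydrofolate is the carrier on which cells move single carbons at several oxidation states. Serine and glycine hand over carbons in mitochondria, where they are oxidised to formate, and formate leaves for the cytosol, where it feeds purine, thymidylate and methionine synthesis. In the brain, glycine is also a transmitter and an NMDA receptor co-agonist, the glycine cleavage system is known as an astrocyte and progenitor activity, and Aldh1l1 is widely used as an astrocyte marker.

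Of 14297 barcodes, 11518 nuclei passed filters on both assays, and the 4 libraries held 20151562 to 29243072 RNA molecules (UMIs) each, with a median of 6655 UMIs per nucleus. Nuclei were clustered without the 10 enzymes or 20 further pathway genes, and 8 types with at least 20 nuclei in every library were tested: astrocytes (AST, 1452 nuclei), oligodendrocyte progenitors (OPC, 556), differentiating precursors marked by Bmp4 and Enpp6 (COP, 361), oligodendrocytes (ODC, 773), excitatory neurons (EXC, 5239), inhibitory neurons (INH, 770), Cajal-Retzius cells (CR, 135) and microglia (MG, 757). Within EXC, the tested subtypes were CA1 (855), CA3 (485), mature (DG-M, 1928) and immature (DG-i, 926) dentate granule neurons and other excitatory neurons (792). Astrocyte markers, 17 genes, summed to 31236 to 37709 CPM (counts scaled to the same total in every sum) in AST, and to 910 to 1082 CPM in EXC, 4885 to 6262 CPM in OPC and 1670 to 4756 CPM in COP. The excitatory list was as high in CR, at 5145 to 7019 CPM, as in EXC, at 4105 to 4632 CPM. AST made up 7.14% and 12.6% of nuclei in MF1 and MF2 and 16.9% and 12.9% in HF1 and HF2, and haemoglobin RNA stood at 1878 CPM in MF1 against 257 to 554 CPM in the other libraries.

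The enzymes were distributed unequally over the cell types. Counts were summed per library and type and each type was set against the mean of the other 7 by edgeR's quasi-likelihood test, with library as a block, a Benjamini-Hochberg adjusted p under 0.05 over all genes and a fold of at least 2. Of the 10 genes, 9 had enough counts to be tested and 8 were called in at least 1 type, with 9 calls higher and 7 lower. The share of all genes called in at least 1 type was not counted, so the 8 cannot be set against it, and shares are given per type. AST had 3 higher and 3 lower among the 9 tested, where 14.5% of all 11685 genes were called higher in AST and 13.8% lower. OPC had 4 higher, against 10% of all genes, and COP 2 higher, against 10.7%. EXC had 1 lower (8.02% of all genes), MG 1 lower (16%) and ODC 2 lower (11.3%).

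**Figure D1:**
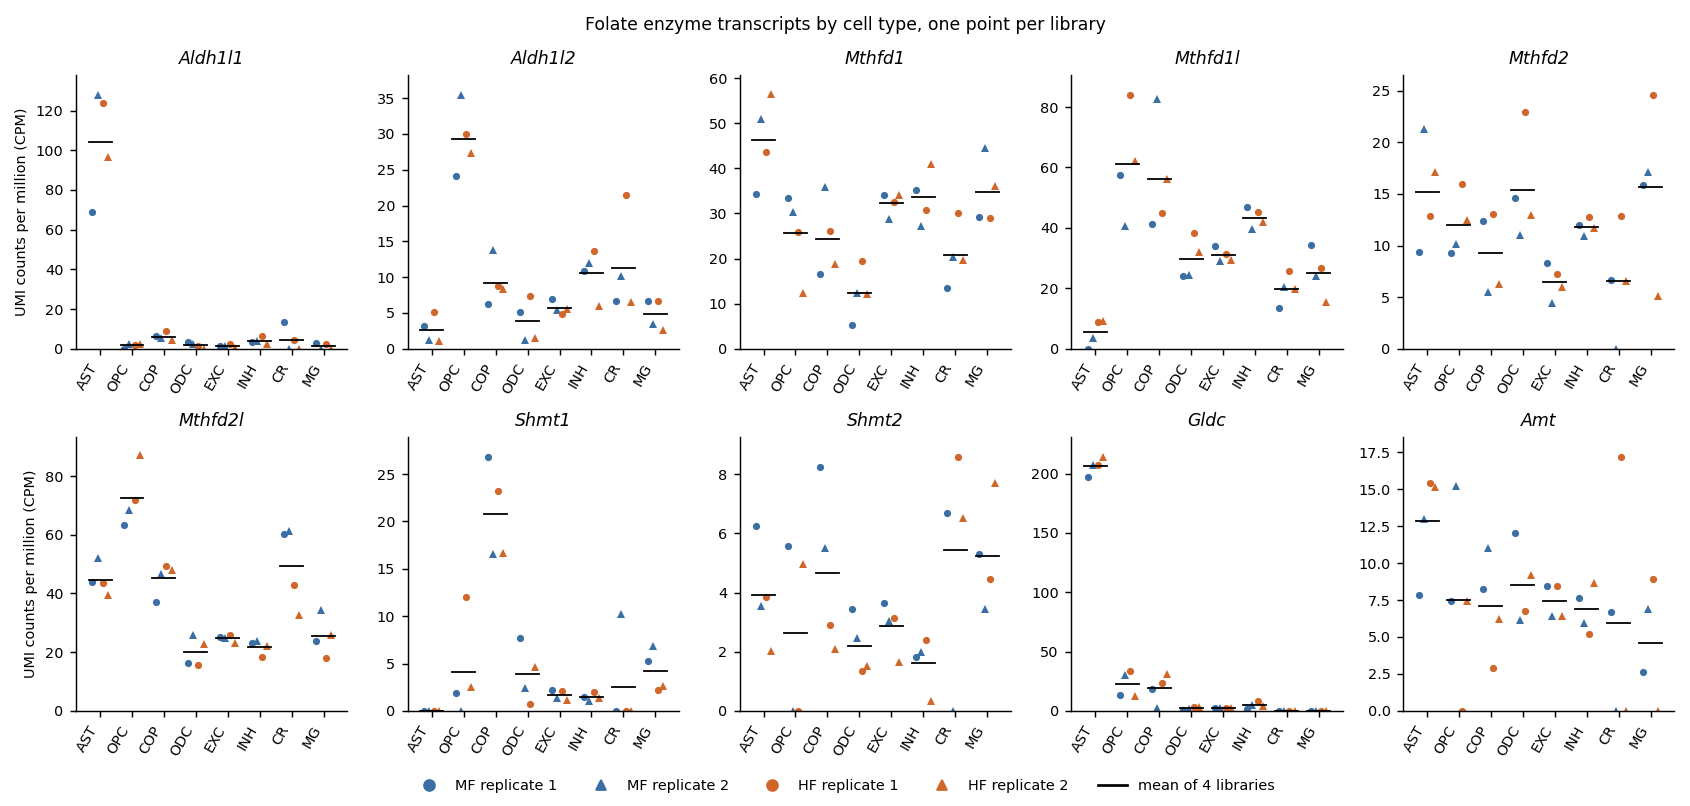
UMI counts in CPM (vertical axes, one scale per gene, each from 0) of the 10 enzymes in the 8 tested cell types, with a point for each of the 4 libraries (blue MF, orange HF) and a line at their mean. Aldh1l1 and Gldc stand highest in AST in every library, Aldh1l2 and Mthfd2l in OPC, Shmt1 in COP, and Mthfd1l is lowest in AST.

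Aldh1l1, the cytosolic 10-formyltetrahydrofolate dehydrogenase that releases the one-carbon unit as carbon dioxide, was an astrocyte transcript. In AST it measured 68.8 and 128 CPM in MF1 and MF2 and 124 and 96.8 CPM in HF1 and HF2 (104 ± 27.4, SD, n = 4). Every AST value lay far above the highest value of any other tested type, whose means ran from 1.22 CPM in MG to 6.14 CPM in COP, while the AST libraries themselves differed, MF1 being the lowest. The fitted level was 69.0-fold higher in AST than in EXC (log2 6.11 ± 0.19 SE, adjusted p = 5.02e-29, edgeR) and 17.7-fold higher than in COP, the next type in order. Below COP the neighbouring types did not differ beyond their spread except for INH over ODC (log2 1.26 ± 0.55, edgeR adjusted p = 0.0472). The calls of lower Aldh1l1 in EXC (log2 −1.59), MG (−1.76) and ODC (−1.34) compare each with a mean that includes AST, and those in MG and ODC rested on 3 and 8 UMIs in all. The MG call was lost under each alternative tried, among them every omission of a library, by which the log2 value ran from −2.36 to −1.42, and the ODC call was lost without any 1 library (−1.66 to −1.02). Gm45901, a noncoding gene on the same strand, overlaps 33054 bases of the 113777-base span of Aldh1l1 (ENSMUSG00000030088, chr6:90486427-90600203, plus strand, mm10), and how reads in the overlap were assigned is not given in the sources used here.

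AST nuclei fell into 2 clusters that carried Aldh1l1 unequally. In the larger, of 1295 nuclei and led by Gja1 and Aqp4, Aldh1l1 averaged 113 ± 30.4 CPM (SD, n = 4), and in the smaller, of 157 nuclei and led by Adgrv1 and Tnc, it averaged 22.8 ± 10.5 CPM on 9 UMIs. The smaller cluster was lower in 4 of 4 libraries. Gldc was not lower there, at 262 ± 45.0 CPM against 200 ± 7.78 CPM. These values are a description, because both clusters were drawn from the same nuclei.

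Gldc encodes the glycine decarboxylase of the mitochondrial glycine cleavage system, and Amt the aminomethyltransferase that passes the carbon of glycine to tetrahydrofolate. Gldc in AST measured 197 and 207 CPM in MF1 and MF2 and 207 and 214 CPM in HF1 and HF2 (206 ± 6.85, SD, n = 4). The 4 libraries were nearly equal, unlike for Aldh1l1. In EXC it averaged 2.40 ± 0.196 CPM, and AST exceeded EXC 75.7-fold (log2 6.24 ± 0.15, edgeR adjusted p = 1.04e-29). Over the 17 astrocyte markers the median level in EXC was 0.825% of that in AST (range 0.322% to 16.8%). Beside it, pooled Gldc in EXC stood at 1.16% and Aldh1l1 at 1.23% of their AST levels. The part of astrocyte RNA in these EXC levels, and so in the folds, was not tested. No Gldc UMI was counted among the 1882421 UMIs of MG or the 633575 of CR, so by a floor of 3 counts over the group AST, at 207 CPM pooled over its libraries, was at least 130-fold higher than MG and at least 43.7-fold higher than CR, limits that cover counting error only.

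OPC and COP formed a second, lower tier of Gldc. OPC held 13.01 and 30.4 CPM in MF1 and MF2 and 34.0 and 12.4 CPM in HF1 and HF2 (22.5 ± 11.3, SD), 7.84-fold above EXC (log2 2.97 ± 0.38, edgeR adjusted p = 2.16e-08) and 9.66-fold below AST. COP held 18.5, 2.75, 23.2 and 31.2 CPM in the same order, with MF2 far below the others, and exceeded ODC 7.86-fold (edgeR adjusted p = 1.27e-05). Astrocyte RNA was present in both types, as the marker sums above show: over the 17 astrocyte markers the median level in OPC was 3.44% of that in AST (range 0.415% to 39.4%), and its part in the Gldc level was not tested. The mean of the other types includes MG and CR, which held no Gldc UMI. The Gldc differences of COP, OPC and AST from that mean therefore depend on the fit of those types and are no bounds. With nuclei over a doublet score of 0.05 left out, the COP difference was log2 1.19 (edgeR adjusted p = 0.410). With nuclei filtered on RNA alone it was 0.18, and COP was called in neither. The part of MG and CR in these lower COP values was not tested. The OPC call against the same mean held under each alternative tried.

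To compare types of unequal depth, each nucleus was thinned to 1000 UMIs. A Gldc UMI was then found in 17.9% of AST nuclei (exact 95% binomial interval 15.9 to 20.0%, counting error only), 2.71% of OPC, 0.440% of EXC and no MG nucleus of 729 (up to 0.505%). Unthinned, the shares were 38.4% of AST and 2.37% of EXC, with median depths of 2653 and 9071 UMIs. An Aldh1l1 UMI was found in 10.1% of thinned AST nuclei (8.58 to 11.8%) and 0.153% of EXC (24.0% and 1.34% unthinned). The shares and the CPM thus placed AST above EXC in the same direction for both genes.

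Amt was far more even. It measured 7.82 and 13.01 CPM in MF1 and MF2 and 15.4 and 15.1 CPM in HF1 and HF2 in AST (12.9 ± 3.52, SD, n = 4), and type means elsewhere ran from 4.61 CPM in MG to 8.52 CPM in ODC. The MF1 value of AST lay within the range of the other types. AST was called against the mean of the others (log2 1.05 ± 0.31, edgeR adjusted p = 0.00359), but no neighbours in the order of types differed beyond their spread, and the fold fell under 2 without HF2 (log2 0.91) and without the low-count filter (0.98). Per kilobase of gene span, a scale that assumes intronic reads were counted, AST held 2.68 CPM per kb of Gldc, 2.36 of Amt and 0.917 of Aldh1l1. Per kilobase of exon it held 33.9, 5.27 and 23.1 CPM, so Gldc and Amt were close on the first scale and far apart on the second, and whether intronic reads were counted is not given in the sources used here. Gldc spans chr19:30098447-30175429 and Amt chr9:108296853-108302302.

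Serine hydroxymethyltransferase moves the carbon of serine to tetrahydrofolate, and the cytosolic Shmt1 and mitochondrial Shmt2 were both sparse, with 217 and 276 UMIs in all. Shmt1 peaked in COP, at 26.8 and 16.5 CPM in MF1 and MF2 and 23.2 and 16.7 CPM in HF1 and HF2 (20.8 ± 5.07, SD, n = 4). Each COP value exceeded every value of the other 7 types. COP was 5.03-fold higher than ODC (edgeR adjusted p = 5.91e-05) and 10.1-fold higher than EXC (log2 3.34 ± 0.38, edgeR adjusted p = 5.44e-10), and OPC, the earlier stage, was lower than COP by log2 −2.27 (adjusted p = 0.00136).

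AST was the opposite pole for Shmt1, with no UMI in any of the 4 libraries among 4032363 UMIs, which allows up to 0.744 CPM. By that floor COP, at 21.3 CPM pooled over its libraries, was at least 28.6-fold higher and EXC, at 1.75 CPM pooled, at least 2.35-fold higher. The AST call (log2 −5.97, edgeR adjusted p = 0.000724) rests on no UMI and its value is no bound. It could not be fitted with a finite error when MF2 was left out. With the 30 pathway genes returned to the clustering the AST difference was log2 −2.35 (edgeR adjusted p = 0.0134). The smaller AST cluster then held 337 nuclei instead of 157, and no mixed astrocyte-like cluster of 181 nuclei was set aside. The part of those nuclei in the Shmt1 value was not tested. Shmt2, with type means of 1.63 CPM in INH to 5.45 CPM in CR, fell below the count filter and was not tested across types. Shmt1 spans chr11:60788104-60811718 and Shmt2 chr10:127517123-127522444.

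Aldh1l2, Mthfd2l and Mthfd1l had their highest type means in OPC, whereas Mthfd2 and Shmt2 did not. Aldh1l2, the mitochondrial counterpart of Aldh1l1, measured 24.2 and 35.5 CPM in MF1 and MF2 and 30.0 and 27.4 CPM in HF1 and HF2 in OPC (29.2 ± 4.78, SD, n = 4), against 2.62 ± 1.94 in AST. No OPC value overlapped AST, EXC, COP or ODC. OPC exceeded COP 3.25-fold (log2 1.70 ± 0.41, edgeR adjusted p = 0.000930) and ODC 6.28-fold (adjusted p = 1.87e-07), while AST was lower than the mean of the other types by log2 −1.51 (edgeR adjusted p = 0.00161). The cytosolic Aldh1l1 stood the other way round, at 1.75 CPM in OPC and 104 CPM in AST. Aldh1l2 spans chr10:83487450-83534140, where the antisense gene D10Wsu102e overlaps 1056 bases of it.

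Mthfd2l, a mitochondrial methylenetetrahydrofolate dehydrogenase and cyclohydrolase, followed the same order among the oligodendrocyte stages. OPC held 63.2 and 68.4 CPM in MF1 and MF2 and 71.9 and 87.1 CPM in HF1 and HF2 (72.7 ± 10.3, SD), COP 45.3 ± 5.58 and ODC 20.1 ± 5.005. The 4 OPC values lay above all those of both later stages. OPC exceeded ODC 3.37-fold (log2 1.75 ± 0.18, edgeR adjusted p = 5.26e-11). Mthfd2, its paralogue best known from embryonic and dividing cells, had its lowest means in EXC and CR (6.48 and 6.52 CPM) and its highest in MG, ODC and AST (15.7, 15.4 and 15.2 CPM), and no neighbours in this order differed beyond their spread. AST exceeded EXC 2.08-fold (edgeR adjusted p = 0.000201), without Mthfd2 being called in any type against the mean of the others. Mthfd2l spans chr5:90931117-91021368 and Mthfd2 chr6:83305691-83325908.

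Mthfd1l makes formate from 10-formyltetrahydrofolate in mitochondria. OPC held 57.6, 40.5, 83.9 and 62.2 CPM in MF1, MF2, HF1 and HF2 (61.1 ± 17.9, SD) and COP 56.2 ± 18.7, and the difference between them lay within its error (log2 0.22 ± 0.24, edgeR adjusted p = 0.553). AST held 0, 3.55, 8.998 and 9.08 CPM in the same order, on 0, 3, 14 and 9 UMIs. All 4 AST values lay below all those of the other 7 types, although the difference from CR, which held 13 UMIs, was not called (log2 −1.48 ± 0.61, edgeR adjusted p = 0.0551). AST was lower than EXC by log2 −2.42 ± 0.26 (edgeR adjusted p = 6.46e-11). Over the 10 excitatory markers the median level in AST was 7.80% of that in EXC (range 3.08% to 65.1%). Beside it, pooled Mthfd1l in AST stood at 20.7% of its EXC level, and the part of neuronal RNA in it was not tested. Mthfd1l spans 193964 bases (chr10:3973118-4167081).

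Mthfd1, the cytosolic enzyme that interconverts formate and the tetrahydrofolate-bound forms, had type means between 12.3 CPM in ODC and 46.4 CPM in AST. AST held 34.4, 50.9, 43.7 and 56.5 CPM (46.4 ± 9.52, SD) in MF1, MF2, HF1 and HF2 and EXC 32.4 ± 2.53. ODC was lowest, at 5.15, 12.3, 19.6 and 12.2 CPM, the highest of which overlapped OPC, COP and CR. The ODC call (log2 −1.15 ± 0.21, edgeR adjusted p = 1.64e-05) passed 2-fold, but without MF1 the value was −0.86, under that fold. An antisense gene, Gm34868, overlaps 19090 bases of Mthfd1 (chr12:76255298-76319803), and whether counting used strand is not given in the sources used here.

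Within the excitatory neurons 10 calls were made, 4 of them in the immature granule neurons. DG-i had 4 calls higher among 9 tested enzymes and none lower, where 10.4% of 13241 genes were called higher in DG-i. Aldh1l2 measured 61.8 and 53.8 CPM in MF1 and MF2 and 37.0 and 76.7 CPM in HF1 and HF2 in DG-i (57.3 ± 16.5, SD, n = 4), 4.16 ± 1.07 in DG-M and 1.10 ± 0.275 in CA1. DG-i exceeded every other subtype in every library. Its mean was also above the 29.2 CPM of OPC, a difference that was not tested. The difference was 11.1-fold against DG-M (log2 3.48 ± 0.22, edgeR adjusted p = 4.54e-16) and 36.9-fold against CA1 (log2 5.21 ± 0.30).

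Mthfd2l, Shmt1 and Gldc were also higher in DG-i. Mthfd2l measured 68.9, 87.0, 81.4 and 58.8 CPM in MF1, MF2, HF1 and HF2 (74.0 ± 12.7, SD), above all values of the other subtypes and 2.79-fold above DG-M (edgeR adjusted p = 6.54e-10). OPC, outside the neurons, averaged 72.7 CPM. Shmt1 measured 9.11, 6.33, 18.0 and 6.53 CPM, 3.60-fold above DG-M (adjusted p = 0.000211, edgeR), and Gldc 8.10, 9.49, 13.7 and 13.1 CPM, 4.95-fold above DG-M (adjusted p = 1.96e-05, edgeR). These 2 rested on 34 and 35 UMIs. Mthfd1 did not share the direction, being lower in DG-i than in DG-M by log2 −0.45 ± 0.16 (edgeR adjusted p = 0.0160).

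CA1 differed from the granule neurons in Mthfd1l. CA1 held 58.2, 43.0, 48.2 and 39.2 CPM in MF1, MF2, HF1 and HF2 (47.2 ± 8.25, SD), and DG-M 11.8, 15.5, 16.1 and 21.5 CPM (16.2 ± 4.01), without overlap. CA1 exceeded DG-M 3.23-fold (log2 1.69 ± 0.16, edgeR adjusted p = 1.46e-11) and CA3 1.49-fold (adjusted p = 0.00453, edgeR). Against the mean of the other subtypes CA1 was higher (log2 1.04, where 6.66% of genes were called higher) and DG-M lower (−1.08, 7.38% called lower), and without MF1 these values fell under 2-fold, to 0.89 and −0.86. Shmt1 in CA3 was lower (log2 −2.79, 3.9% called lower) on 2 UMIs in all, both in HF1, and its fitted value was −5.20 without HF1, which is no bound, and −1.58 with nuclei filtered on RNA alone. Aldh1l2 was lower in CA1 (log2 −2.15, 6.53% called lower), CA3 (−1.12) and other excitatory neurons (−1.11, 2.25% called lower), each against a mean that includes DG-i, and the CA3 call was lost without MF1 (−0.93) or HF2 (−0.93) and the call in other excitatory neurons without HF1 (−0.88), at the higher clustering resolution (−0.65), with nuclei filtered on RNA alone (−0.80) and with the pathway genes returned to the clustering (−0.92).

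**Figure D2:**
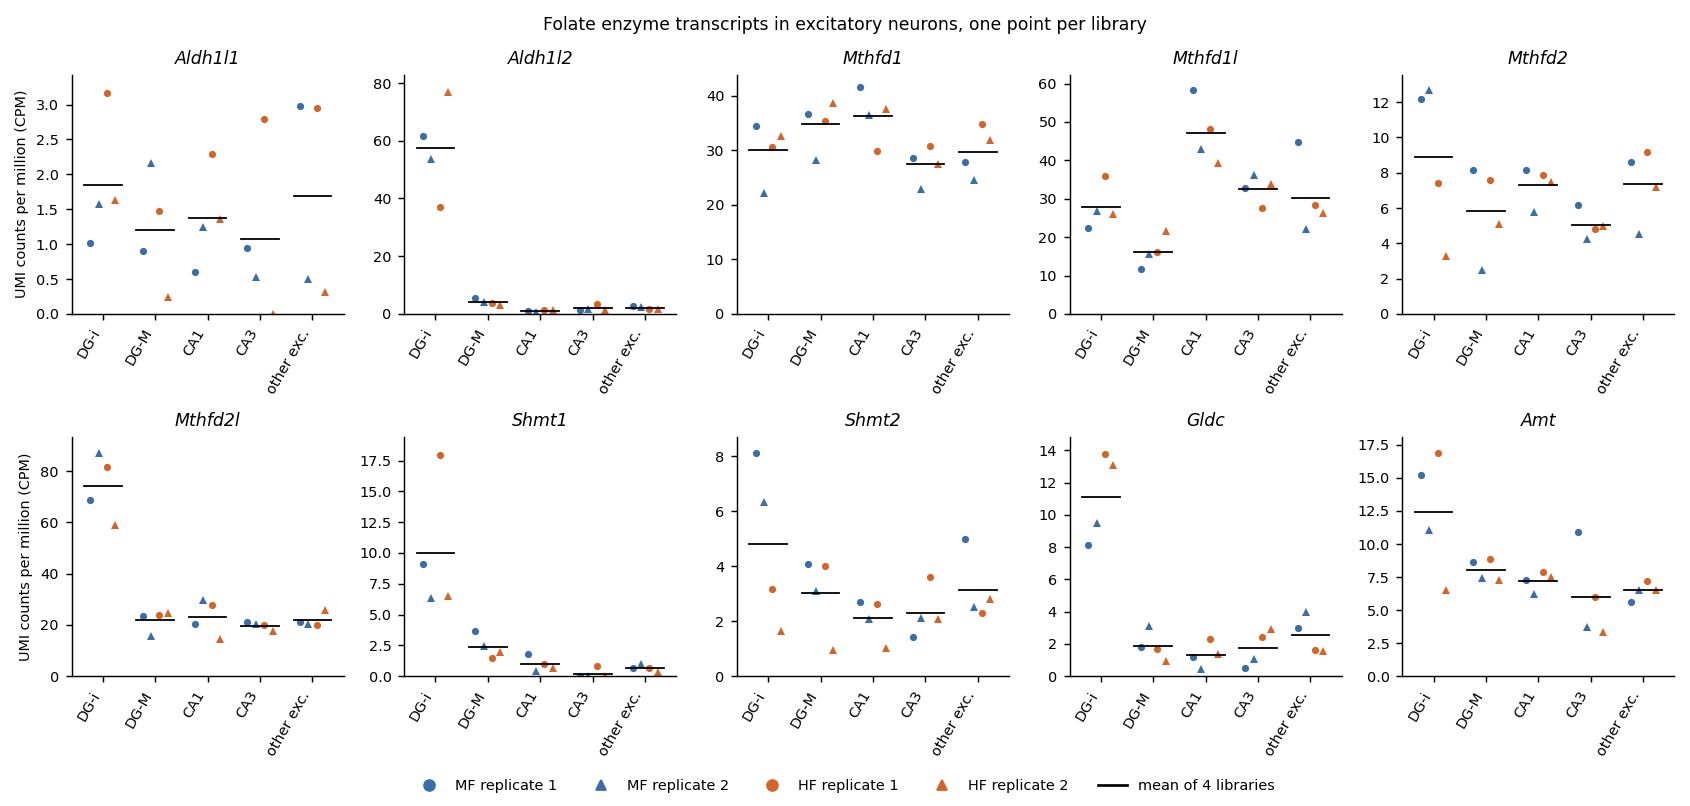
UMI counts in CPM (vertical axes from 0, one scale per gene) of the enzymes in the 5 excitatory subtypes, a point per library and a line at the mean. Aldh1l2 in DG-i lies between 37.0 and 76.7 CPM, above every other subtype, and Mthfd1l is highest in CA1.

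The 20 further genes of the pathway were counted by the same tests, and 14 of them were tested across the types. In AST 4 were higher and none lower: Phgdh (log2 2.13), Psat1 (1.46) and Psph (1.28), the enzymes of serine synthesis, and Ggh (1.72), which removes glutamates from stored folate. The same Phgdh, Psat1 and Ggh were lower in EXC, by log2 −1.44, −1.49 and −1.48, and in INH (log2 −1.50, −1.64 and −1.50, where 5.61% of all genes were called lower), and Mthfs was lower in EXC (−1.65). ODC was higher in Psat1 (1.64) and Phgdh (1.49), where 10.6% of genes were called higher, and lower in Mtr (−1.28), the methionine synthase, which was higher in MG (1.86) together with Mthfs (1.16), where 13.4% were called higher. OPC was higher in Ggh (1.62) and COP in Psat1 (1.23). In DG-i, Tyms, the thymidylate synthase, was higher (1.66), as were Ggh (1.13) and Atic (1.08), and Mthfs was lower (−1.23, where 12.7% were called lower). Tyms was lower in CA1 (−1.33) and in other excitatory neurons (−1.06), where Mthfs was higher (1.24, with 8.11% of genes called higher). Over the 14 genes the median log2 value in AST was 0.22, and over the 9 tested enzymes 0.54.

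**Figure D3:**
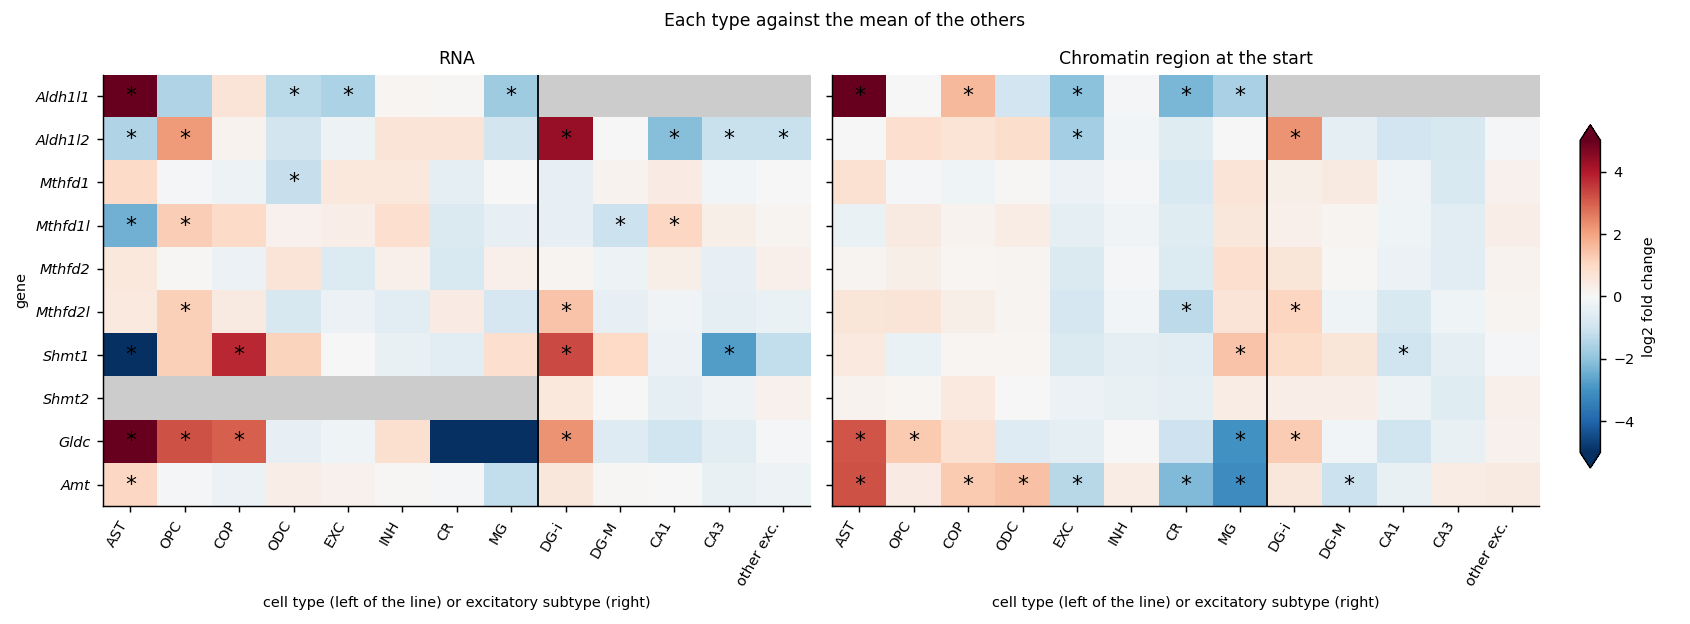
Log2 fold change of each cell type or excitatory subtype against the mean of the others, for RNA (left panel) and for the chromatin region at each gene's start (right panel), with an asterisk where the difference was called and grey where it was not tested. Aldh1l1, Gldc and Amt are raised in AST in both panels, whereas Shmt1, Mthfd1l and Aldh1l2 are called lower in AST in RNA alone. Colours are capped at the ends of the scale.

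Chromatin at the starts of these genes was a separate readout in the same nuclei. Peaks called in each library were merged, and every enzyme had a region within 1 kb of its start that was present in all 4 libraries. At the Aldh1l1 start (chr6:90550248-90551188) AST held 53.1, 48.2, 57.0 and 55.4 ATAC CPM in MF1, MF2, HF1 and HF2, against 0.779 ± 0.266 in EXC. The AST values did not overlap those of any other type. AST was higher than the mean of the other types by log2 5.33 ± 0.20 (edgeR adjusted p = 2.54e-154), where 21% of 102839 regions were called higher in AST. Without HF1 the value was 6.23, which is no bound, because CR, part of that mean, had its only counts at this start in HF1.

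The starts of Gldc and Amt were also higher in AST, but differed in the other types. At Gldc (chr19:30174942-30175811) AST held 51.4, 44.1, 46.3 and 47.6 ATAC CPM, OPC 19.2 ± 7.61 and MG 1.10 ± 0.793, and both AST (log2 3.13 ± 0.16) and OPC (1.33 ± 0.22, where 15.7% of regions were called higher) were above the mean of the other types (edgeR adjusted p = 4.54e-80 and 4.42e-08). At Amt (chr9:108296312-108297278) AST held 28.6, 19.2, 20.0 and 19.5 ATAC CPM against 1.73 ± 0.348 in EXC, a difference from the other types of log2 3.202 ± 0.25 that stood beside an RNA difference of 1.05. The Amt start was also higher in ODC (log2 1.48, where 18.9% of regions were called higher) and in COP (1.31, 15.4% called higher), the latter call being lost without HF2 (0.95), and it was not called in OPC. The Aldh1l1 start too was higher in COP (1.63, from 1.32 without HF2 to 2.43 without HF1). In MG the starts of Amt (log2 −3.15), Gldc (−3.02) and Aldh1l1 (−1.61) were lower, where 26.5% of regions were called lower, and the Aldh1l1 call was lost without MF1 or HF1 (−1.23 and −1.51), while the Amt value ran from −4.63 (without MF1) to −2.63 (without HF1). In EXC those of Aldh1l1 (−2.06), Aldh1l2 (−1.69) and Amt (−1.39) were lower, where 9.85% were called lower, and the Aldh1l1 call was lost without HF1 (−1.26) and the Amt call with RLE size factors (−0.94). In CR those of Aldh1l1 (−2.28), Amt (−2.22) and Mthfd2l (−1.32) were lower, where 11.5% were called lower. The Aldh1l1 call in CR was lost without MF1, MF2 or HF2 and with RLE size factors, with values down to −1.88, and without HF1, which held both of its counts, the fitted value was −6.94 and is no bound. CR is part of the mean for the other types, so the Aldh1l1 values of COP, EXC and MG without HF1 depend on that fit and are no bounds either. The Amt call there was lost without MF1, HF1 or HF2 and with RLE size factors, and ran from −3.43 (without MF2) to −1.59. Mthfd2l there was −2.10 without HF1 and fell under 2-fold with RLE size factors (−0.88). Over all 61 tested regions in or near the 10 genes, 25 were higher in AST, where 21% of all regions were called higher. Counts in the other types were 18 in OPC (15.7%), 15 in COP (15.4%), 14 in INH (31%), 13 in MG (15.4%), 11 in EXC (38.1%), 8 in ODC (18.9%) and 3 in CR (10.5%). Beside the same shares, 13 of the 17 regions at Aldh1l1 were higher in AST, 9 in OPC and 6 in COP. Of the 11 at Gldc, 7 were higher in AST, 4 in each of OPC, EXC and INH and 3 in COP.

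Shmt1 and Mthfd1l, low in AST as RNA, had no such difference at the start. At Shmt1 (chr11:60810829-60811745) AST held 27.4, 27.1, 30.1 and 27.5 ATAC CPM, as much as COP at 27.7 ± 5.52, and stood above the mean of the other types by log2 0.48 ± 0.13 (edgeR adjusted p = 0.000743, under 2-fold), although no Shmt1 RNA was counted there. In MG the Shmt1 start was higher (log2 1.41, where 15.4% of regions were called higher). At Mthfd1l (chr10:3973308-3974038) AST was lower by log2 −0.32 ± 0.15 (edgeR adjusted p = 0.0615), against −2.42 in RNA. Aldh1l2, also called lower in AST as RNA (log2 −1.51), was not called in AST at its start either. Among the excitatory subtypes the Aldh1l2 start (chr10:83533568-83534339) was higher in DG-i, at 14.0, 11.6, 15.5 and 18.7 ATAC CPM against 3.61 ± 1.18 in DG-M (log2 2.24 ± 0.23 against the mean of the other subtypes, edgeR adjusted p = 7.20e-16, where 16% of 141366 regions were called higher), as were the starts of Gldc (1.28) and Mthfd2l (1.08), the latter just under 2-fold without HF1 (0.998) and with RLE size factors (0.94). The Amt start was lower in DG-M (−1.07, where 13.9% were called lower), a call lost without any 1 library (−1.27 to −0.84), and the Shmt1 start in CA1 (−1.01, 12.9% called lower), which fell under 2-fold without MF2, HF1 or HF2 (−0.96 to −0.94) and with RLE size factors (−0.84).

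Aldh1l2, also called lower in AST in RNA alone, had no RefSeq promoter available. The promoters of the 5 genes below are shown because their chromatin and RNA in AST either moved together (Aldh1l1, Gldc, Amt) or did not (Shmt1, Mthfd1l). Each is the 250 bases before the RefSeq start in GRCm38.p6, written on the gene's own strand, with CCAAT or its reverse complement ATTGG in capitals.
Aldh1l1 (chr6:90550543-90550792, plus): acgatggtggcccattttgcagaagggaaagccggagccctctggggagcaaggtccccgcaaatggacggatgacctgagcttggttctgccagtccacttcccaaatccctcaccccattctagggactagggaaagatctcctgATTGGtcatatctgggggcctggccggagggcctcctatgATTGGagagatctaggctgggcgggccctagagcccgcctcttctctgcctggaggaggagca
Gldc (chr19:30175442-30175691, minus): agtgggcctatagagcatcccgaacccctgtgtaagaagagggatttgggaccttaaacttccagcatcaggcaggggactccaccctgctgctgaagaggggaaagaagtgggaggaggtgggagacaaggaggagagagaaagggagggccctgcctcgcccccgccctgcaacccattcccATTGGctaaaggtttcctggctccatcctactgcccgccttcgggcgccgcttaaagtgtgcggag
Amt (chr9:108296655-108296904, plus): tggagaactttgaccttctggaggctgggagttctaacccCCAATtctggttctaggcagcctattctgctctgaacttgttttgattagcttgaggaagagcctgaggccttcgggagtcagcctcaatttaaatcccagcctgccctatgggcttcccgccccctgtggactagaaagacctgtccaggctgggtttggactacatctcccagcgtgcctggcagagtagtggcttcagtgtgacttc
Shmt1 (chr11:60811266-60811515, minus): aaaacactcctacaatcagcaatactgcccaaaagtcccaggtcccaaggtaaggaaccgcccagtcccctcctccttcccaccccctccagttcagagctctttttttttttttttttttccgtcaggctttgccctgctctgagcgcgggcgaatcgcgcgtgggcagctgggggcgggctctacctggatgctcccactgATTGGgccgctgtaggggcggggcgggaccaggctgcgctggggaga
Mthfd1l (chr10:3972825-3973074, plus): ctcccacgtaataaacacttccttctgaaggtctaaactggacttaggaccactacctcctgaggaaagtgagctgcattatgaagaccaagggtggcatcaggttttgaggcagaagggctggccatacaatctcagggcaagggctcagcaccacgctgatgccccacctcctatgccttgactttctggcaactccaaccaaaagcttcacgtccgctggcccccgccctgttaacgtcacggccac

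CCAAT, searched on both strands and chosen after the sequences were seen, was found in 6 of the 9 promoters that RefSeq's table held, with none for Aldh1l2, and in 34.5% of all 27025 promoters of that length. Aldh1l1 held 2, the first at position −103 from the start, Gldc, Amt and Shmt1 each held 1, and Mthfd1l held none. The C/EBP-ATF letters TGATGNAA and the E-box CACGTG were in none of the 9, and in 3.53% and 6.05% of all promoters. The Amt promoter held 3 CpG dinucleotides, against 7 for Aldh1l1, 8 for Gldc, 13 for Shmt1 and a median of 6 over all promoters. A motif's letters in these windows are a description and not a site.

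The maternal diet was compared within each type and over all nuclei, HF minus MF, by edgeR on library sums with a fold of at least 1.2. Of 81 pairs of an enzyme and a type, 0 were called, 1 had an unadjusted p under 0.05, and DESeq2 called 0. Over all nuclei, 0% of the 18373 genes tested were called by edgeR (199 at an unadjusted p under 0.05) and 0 by DESeq2 (78 unadjusted), and in single types the share called by edgeR was 0% except in OPC, at 0.0549%, while DESeq2 called 3 genes in COP and none in OPC. The libraries of the diets did not overlap for 14 pairs higher in HF and 6 lower. In OPC that was 3 of 5 enzymes, where 27.5% of all genes did not overlap, in AST 2 of 6 (27.3%), in DG-M 4 of 8 (23%), over all nuclei 2 of 10 (18.3%) and in EXC 0 of 10 (20.7%). In the remaining types it was 2 of 5 in COP and 0 of 3 in MG (27.8% of genes in each), 1 of 5 in CA3 (26.7%), CA1 (25.6%) and ODC (25.5%), 1 of 8 in INH and 2 of 5 in other excitatory neurons (25.4% in each) and 1 of 6 in DG-i (24.8%). With 2 libraries against 2 these differences were not detectable as diet effects, which does not show that the diets were alike.

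Gldc over all nuclei was the pair with the unadjusted p under 0.05. It measured 9.15 and 13.3 CPM in MF1 and MF2 and 18.1 and 13.7 CPM in HF1 and HF2, and both HF values lay above both MF values, MF2 and HF2 being close. The difference was log2 0.54 ± 0.23 (edgeR adjusted p = 0.9999). In sums over all nuclei, fewer cells of a type and less RNA per cell cannot be told apart, and the AST share of nuclei, given above, was lowest in MF1 and highest in HF1 as well. Within AST the Gldc difference was log2 0.10 ± 0.27, and with the AST nuclei left out of the sums, an alternative chosen after seeing the data, it was as large as with them (log2 0.61 ± 0.24, edgeR adjusted p = 0.9997). Those sums still held astrocyte-like clusters set aside as mixed by doublet score, of 145 and 181 nuclei. The smaller held 26 and 33 nuclei in MF1 and MF2 and 39 and 47 in HF1 and HF2. The larger held 22, 38, 79 and 42 in the same order. Their part in the difference was not tested. Leaving out 1 library at a time moved the value over all nuclei from 0.23 (without MF1) to 0.91 (without MF2), with no call.

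**Figure D4:**
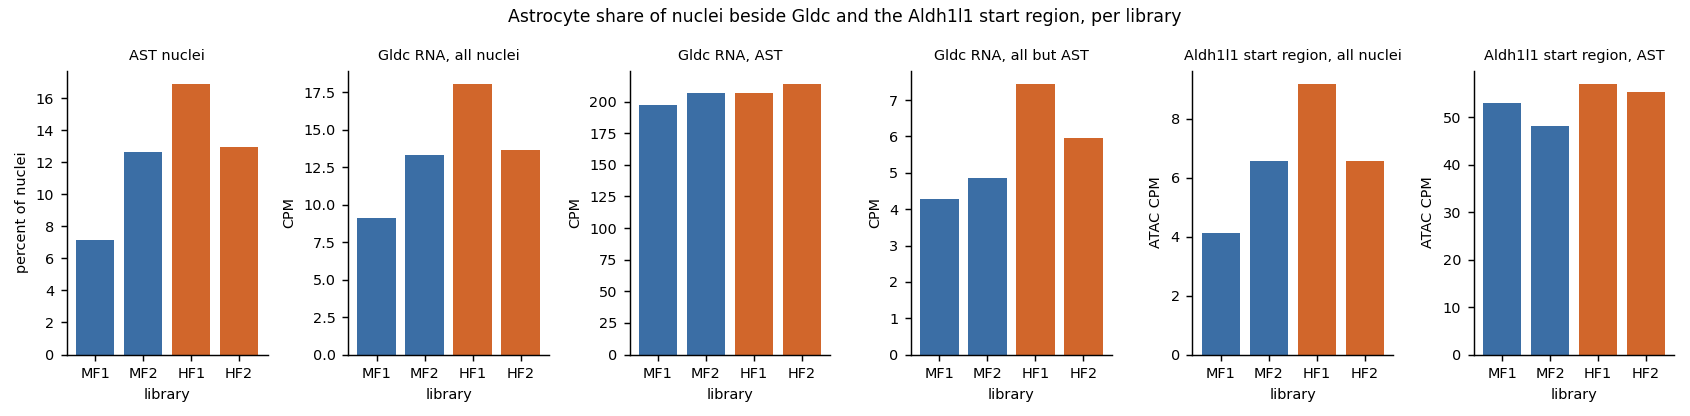
AST nuclei as a percentage of each library's nuclei, beside Gldc RNA (CPM) over all nuclei, within AST and over all but AST. The last panels show the Aldh1l1 start region (ATAC CPM) over all nuclei and within AST. There is one bar per library from 0 (blue MF, orange HF). The AST share and both sums over all nuclei are lowest in MF1 and highest in HF1, while Gldc within AST stays between 197 and 214 CPM. With AST left out, the Gldc diet difference was log2 0.61, against 0.54 over all nuclei.

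No diet difference of the other enzymes passed the test, and their values went both ways. Mthfd1l in OPC, at the values given above, was higher in both HF libraries (log2 0.59 ± 0.33, edgeR adjusted p = 0.9992), and leaving out 1 library moved the value between 0.41 and 0.82. In ODC it measured 24.0 and 24.5 CPM in MF1 and MF2 and 38.4 and 32.1 CPM in HF1 and HF2 (log2 0.59 ± 0.29), and in DG-M the difference was 0.55 ± 0.28, again without overlap. In the remaining groups the diets overlapped for Mthfd1l, at log2 0.43 in DG-i, 0.06 over all nuclei, 0.05 in INH, 0.012 in EXC, −0.09 in CA3, −0.16 in CA1, −0.26 in COP, −0.27 in other excitatory neurons and −0.47 in MG, and AST had too few Mthfd1l counts for this test. Gldc in COP, where MF2 held 1 UMI, differed by 1.22 ± 0.63. It was also higher in HF in DG-i (0.67 ± 0.55), again without overlap. With overlap, Gldc differed by 0.95 ± 0.60 in INH, 0.23 ± 0.58 in OPC and 0.12 ± 0.32 in EXC. The 6 pairs lower in HF without overlap were Shmt1 in DG-M (−0.78 ± 0.50), Mthfd1 in OPC (−0.67 ± 0.50), Aldh1l2 in DG-M (−0.41 ± 0.39) and Mthfd2l in AST (−0.18 ± 0.28), INH (−0.16 ± 0.25) and CA3 (−0.06 ± 0.27). Mthfd2l was higher in HF in DG-M (0.38 ± 0.23), OPC (0.30 ± 0.31) and COP (0.24 ± 0.37), also without overlap. So was Amt in AST (0.53 ± 0.48), CA1 (0.25 ± 0.36) and other excitatory neurons (0.24 ± 0.38). The same held for Mthfd1 in other excitatory neurons (0.39 ± 0.20) and over all nuclei (0.19 ± 0.16). Mthfd1 in ODC differed by 0.99 ± 0.52 with overlap, a value that ran from 0.38 without MF1 to 1.71 without MF2. Aldh1l1 over all nuclei measured 4.199, 8.83, 10.5 and 5.29 CPM in MF1, MF2, HF1 and HF2, so each diet held a high and a low library, and its difference of log2 0.31 ± 0.38 turned negative without MF1 (−0.19) or HF1 (−0.18) and was −0.027 with AST nuclei left out. In AST it was 0.17 ± 0.31 and turned to −0.23 without MF1. In AST, Mthfd1l had 23 UMIs in HF and 3 in MF, a ratio of 4.47 per UMI sequenced (95% interval 1.35 to 23.2, counting error only), with MF1 at 0. Such a ratio was computed for this gene and type alone. The test of whether the diet difference in AST differed from that in EXC gave log2 2.20 ± 0.77 for Mthfd1l (edgeR adjusted p = 1), past an unadjusted 0.05 by both edgeR and DESeq2. That value was 1.27 ± 0.83 without MF1, no longer past an unadjusted 0.05, and 9.07 ± 2.63 without MF2, where MF rested on the library with 0 UMIs and the value is no bound. By this test 0 of 15622 genes passed (573 by edgeR and 78 by DESeq2 at an unadjusted p under 0.05). Of the further pathway genes, 0 of 188 pairs were called and 7 had an unadjusted p under 0.05.

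Chromatin gave no diet call on all 4 libraries either. Of 680 pairs of a region at these genes and a type, 0 were called by edgeR and 26, or 3.82%, had an unadjusted p under 0.05, among them 7 of the 90 regions over all nuclei, while 0.0162% of 154783 regions were called over all nuclei. The unadjusted share over all regions is not given here, so these unadjusted counts are not set against a general rate. The lowest p over all nuclei was at the Aldh1l1 start, with 4.14 and 6.57 ATAC CPM in MF1 and MF2 and 9.18 and 6.57 ATAC CPM in HF1 and HF2 (log2 0.62 ± 0.17, edgeR adjusted p = 0.376). MF2 and HF2 were equal there, and without MF2 (log2 0.96, edgeR adjusted p = 0.00184) or HF2 (0.89, adjusted p = 0.0405) the difference passed the threshold, whereas without MF1 or HF1 it fell to 0.34 and 0.28. Here too the library with the lowest AST share was lowest and that with the highest was highest, and the difference was log2 0.18 within AST and 0.40 ± 0.23 with AST nuclei left out and mixed nuclei kept.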

How the data were processed

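Counts were deposited by the authors as UMI counts per gene and ATAC counts per peak for each nucleus, made with Cell Ranger ARC 2.0.1 on mm10 per the labels, with peaks called in each library separately. Filters on nuclei required 500 to 7000 genes, at most 2% mitochondrial counts and 1000 to 70000 ATAC counts, and those passing were clustered with Scanpy 1.11.5 (3000 variable genes, 20 components, Leiden resolution 0.8) without the 30 pathway genes. Clusters were named from fixed markers, requiring at least 3 of them. Clusters with a median Scrublet score above 0.05 were set aside as mixed (1058 nuclei), since the caller's own threshold marked at most 0.222% of a library. Peaks were merged across libraries into 253724 regions, of which the 154783 with a peak in every library were used. Sums per library and type were fitted in edgeR 4.0.16 (TMM, filterByExpr, quasi-likelihood test, two-sided), with DESeq2 1.42.0 as an alternative. The script was tested on simulated data. All 10 enzymes are named whatever their values, and genes of the further pathway list where they passed a test. The enzymes, lists and tests were chosen with earlier results of these data known. Nuclei called vascular (122) or cycling (88), mixed nuclei and 207 unnamed nuclei were left out of the tests between types and entered the sums over all nuclei. Alternatives covered size factors, the low-count filter, doublets, clustering, nucleus filters, single libraries and a replicate block. Fold changes come from the fit, whose scaling differs between types, so they can depart from ratios of CPM. Their standard errors are approximate, taken as the absolute log2 fold change divided by the square root of the test's F statistic, and are unreliable for sparse genes. Libraries shared 13 to 27 barcodes per pair.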

Additional observations from a re-analysis of the deposited data

How the results depend on the processing

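With 2 libraries a diet, leaving out 1 left a lone library whose spread was taken from the rest, and sparse members limited many types. The 16 calls by cell type numbered 13 to 19 over the alternatives, the 10 among excitatory subtypes 7 to 11, and the 17 start-region calls by type 13 to 17. The 5 start-region calls among excitatory subtypes fell to 3 with RLE size factors and ran from 3 to 6 when 1 library was left out. Of 305 comparisons of the 26 RNA calls with an alternative, 37 lost the call and 0 reversed, and of 132 for the 22 start-region calls, 25 lost it and 0 reversed. Diet calls of members stayed at 0 in RNA under each alternative run, and chromatin calls ran from 0 to 2 when 1 library was left out. Leaving out 1 library, the diet difference (log2, HF minus MF) of Aldh1l1 ran from −0.19 to 1.01 over all nuclei and from −0.23 to 0.80 in AST, and that of Mthfd1 in AST from −0.058 to 0.64. Without AST nuclei, a choice made after seeing the data, Aldh1l1 over all nuclei was −0.027. The cause of these reversals was not tested. Of 88 comparisons of 9 diet values, these 6 reversed and 80 kept their direction and side of the threshold. Over all types, edgeR called 4 genes by diet, against 150 without the low-count filter, 9 at the higher clustering resolution and 88 to 267 when 1 library was left out. No source says what the replicate numbers share, and 2 pairs do not establish a pairing. Differences between replicates correlated between the diets at 0.505 over all nuclei, and from 0.0049 in CR to 0.524 in EXC over the types and subtypes. With a replicate block 130 genes and 0 members were called by diet, and 14 calls of members were made by cell type.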

Other observations

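Cycling progenitors, 88 nuclei with as few as 15 in a library and therefore not tested, held 38.1 ± 15.7 CPM of Gldc (SD, n = 4) on 23 UMIs, below AST and above OPC in mean. The astrocyte markers summed to 2769 to 6076 CPM in these progenitors, and the part of astrocyte RNA in their Gldc level was not tested. They also held 54.6 ± 27.6 CPM of Mthfd2l, 49.9 ± 16.6 of Mthfd1, 19.0 ± 5.21 of Mthfd2 and 8.64 ± 4.90 of Shmt1. Oligodendrocytes fell into a cluster of 265 nuclei with 11 Gldc UMIs and a cluster of 508 nuclei with 0.

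Over 12 named types and subtypes and 13454 genes, the transcript whose mean log2 CPM was most like that of Aldh1l1 was Mlc1 (Pearson r = 0.993), followed by Ttll8 (0.990) and Gm49303 (0.989). The closest to Gldc was Gm10644 (r = 0.970), to Mthfd2l Zfp428 (0.965), to Aldh1l2 Hmgb3 (0.948), to Shmt1 Nek3 (0.931), to Amt Endog (0.919), to Mthfd1 Trak1 (0.914), to Mthfd2 Asah2 (0.911), to Mthfd1l Sgk1 (0.895) and to Shmt2 Ccdc61 (0.860). The points share the 4 libraries, and the coefficients are a description.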
